A study of Mus musculus with 18 samples.

Results

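The MYC and MAX network genes described here are Myc, Mycn, Mycl, Max, Mxd1, Mxd3, Mxd4, Mxi1, Mnt and Mlx, 10 genes taken by symbol from the 41079 genes of the count tables, and all 10 had at least 1 fragment. Transcripts were counted by RNA sequencing in mouse bone marrow cells selected for cKit, the receptor that marks blood progenitors. There were 6 groups of 3 libraries each: AE9a cells given C16, AE9a cells given RE, AE9a cells given the solvent DMSO, wild-type (WT) cells given C16, WT cells given RE, and WT cells given DMSO. AE9a is a splice form of AML1-ETO, the leukaemia fusion of RUNX1 and RUNX1T1. The series was made to study inhibition of WDR5 and MLL1, but which compound acts on which protein, its dose and the treatment time are not given in the sources used here. Strain, age and the way AE9a was brought into the cells are likewise not given. The labels name no animal or culture for a replicate, and p-values therefore speak of the spread among these libraries, which could be technical.

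MYC proteins act on DNA only when paired with MAX, and the pair binds the E-box CACGTG and raises genes of ribosome building, nucleotide synthesis and growth. The MXD proteins (MXD1, MXD3, MXD4 and MXI1) and MNT compete for MAX at the same sites and bring in the SIN3 corepressor instead. In blood formation MYC is high in dividing progenitors, whereas MXD1 is known to rise as myeloid cells mature. MLX is another hub, which pairs with some MXD proteins and MNT and with the glucose-sensing proteins encoded by Mlxip and Mlxipl.

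Library totals lay between 16053727 and 27207748 fragments. Levels are CPM, a gene's share of the library's fragments scaled by the TMM method, or TPM where genes are compared with each other, since TPM also divides by gene length. Kit stood at 221 to 324 CPM in AE9a C16 libraries and at 1364.1 to 1617.2 CPM in AE9a RE libraries. It stood at 858 to 1190.9 CPM in AE9a DMSO libraries and at 59.6 to 213 CPM in the 9 WT libraries. Hlf and Flt3, also progenitor markers, moved against Kit under either compound in AE9a cells, as given below. Runx1t1, a partner gene of the fusion, stood at 2.44, 4.22 and 0.211 CPM in AE9a C16 replicates 1, 2 and 3, at 35.4, 44.5 and 44.9 CPM in AE9a RE libraries and at 33.4, 46.2 and 37.8 CPM in AE9a DMSO libraries. WT libraries held at most 0.388 CPM of it, so the library labelled AE9a C16 replicate 3 was at the WT level. Whether this count reports the fusion transcript is not stated. The 3 WT libraries numbered 2 stood apart from numbers 1 and 3 under every treatment: their summed megakaryocyte markers were 139, 295 and 209 CPM under C16, RE and DMSO, against 1865.4 to 8187.7 CPM in the other 6 WT libraries, and their 5 primary granule markers summed to 5716.4 to 9360.8 CPM, against 1169.3 to 2360.1 CPM. The genotypes were counted in separate tables, and library batch and genotype cannot be told apart.

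Myc was the most abundant member per length on average in all 6 groups. In TPM, Myc averaged 209 ± 16.6 in AE9a DMSO cells and 163 ± 7.69 in WT DMSO cells (SD, n = 3 each, as for all SDs here). Max, the shared partner, followed with 112 ± 1.51 TPM in AE9a DMSO cells and 90.3 ± 1.74 TPM in WT DMSO cells. Among the competitors under DMSO, Mxd1 stood at 88.2 ± 2.18 TPM in AE9a cells and 80.7 ± 2.3 TPM in WT cells, and Mxd4 at 78.1 ± 12.1 TPM in AE9a cells and 42.4 ± 7.56 TPM in WT cells. Mlx, Mxi1 and Mnt lay between 20.4 and 38.5 TPM on average in these groups, and Mxd3 at 8.99 TPM in AE9a and 11.8 TPM in WT cells. Mycl was close to undetected, with 3 fragments in each AE9a RE library, 0 to 7 fragments in WT RE libraries and at most 27 fragments in any library. Of the summed TPM of the 10 members, Myc made up 52.2 ± 3.16% in AE9a C16 cells, 26.8 ± 1.64% in AE9a RE cells and 34.7 ± 1.98% in AE9a DMSO cells.

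**Figure D1:**
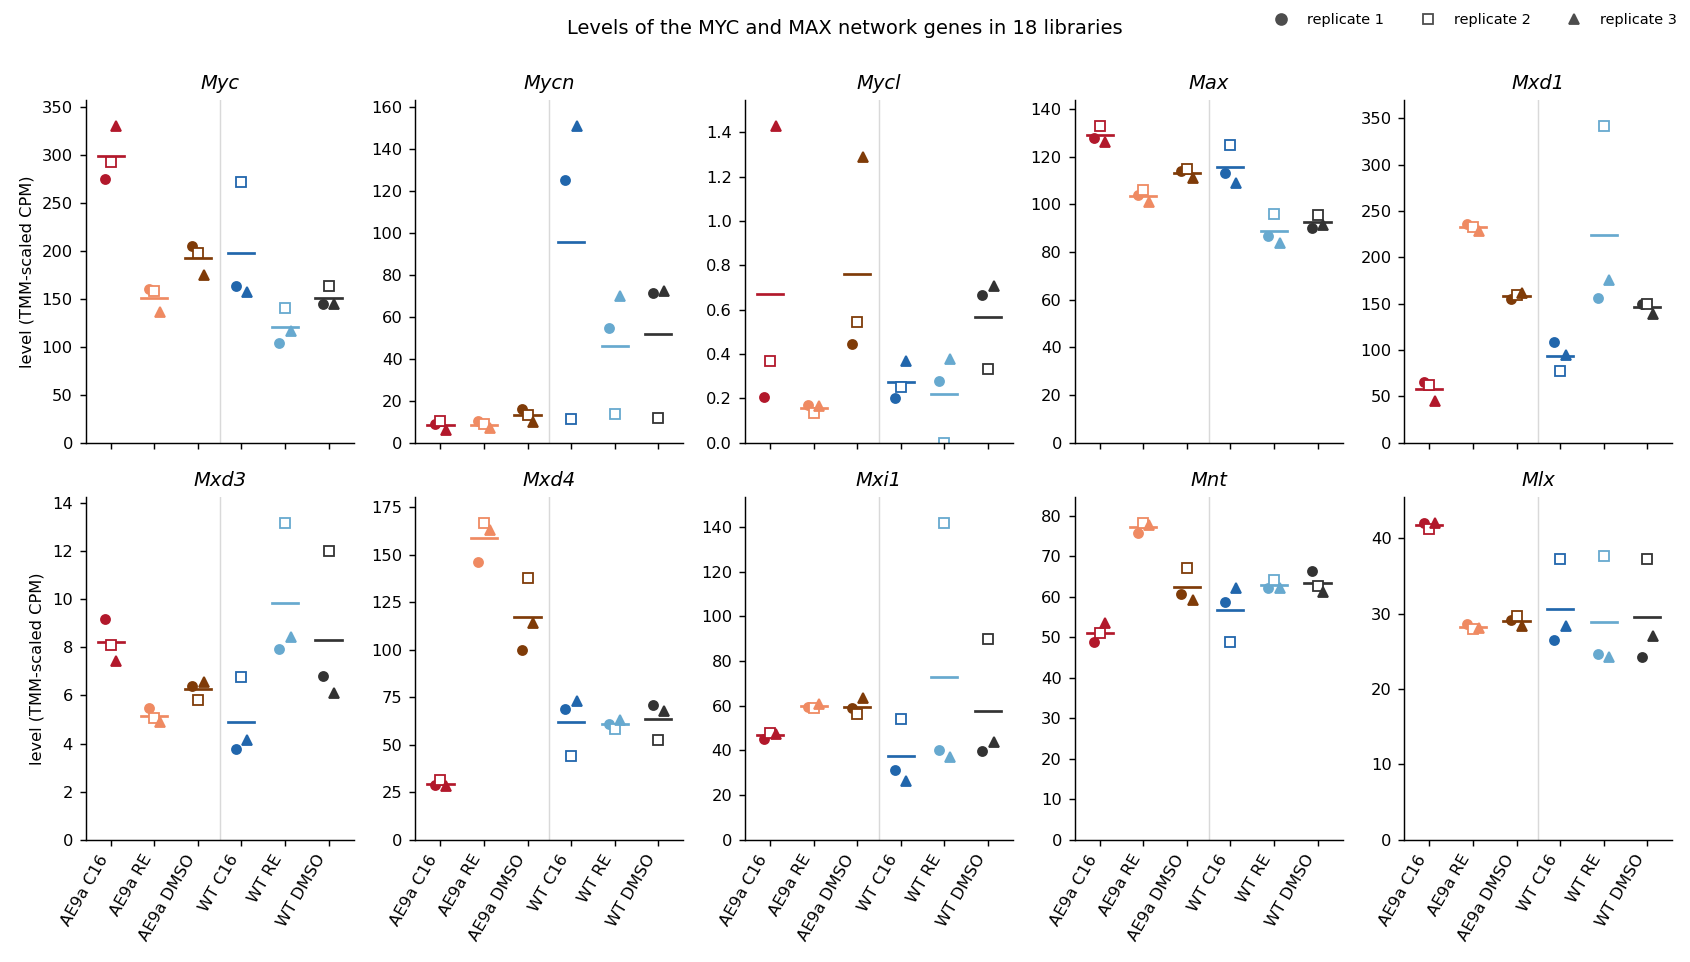
Level of each of the 10 genes (vertical axis, TMM-scaled CPM, starting at 0) in every library, by group; bars are group means of 3 libraries and open squares are replicates numbered 2. Mxd1 and Mxd4 are lowest in AE9a C16 cells, at 57.5 and 29.5 CPM on average. The library numbered 2 is the highest of every WT group for Myc, Max, Mxi1, Mxd3 and Mlx, and the lowest for Mycn and Mxd4.

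The E-box itself lay near the start site of some members, and these windows are shown because CACGTG is the site that the network's own proteins bind. RefSeq promoters (GRCm38.p6, 250 bases before to 50 bases after a start site) were found for 9 of the 10 members, Myc being the exception, and CACGTG, a palindrome that reads alike on either strand, was present in 4 of the 9. The windows, each on the gene's strand with 20 bases on either side and the E-box in capitals, were these.
Max: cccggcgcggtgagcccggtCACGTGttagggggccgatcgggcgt
Mxd4: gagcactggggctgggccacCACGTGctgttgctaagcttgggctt
Mnt: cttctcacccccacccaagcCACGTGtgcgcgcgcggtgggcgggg
Mlx: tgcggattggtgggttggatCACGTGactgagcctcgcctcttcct
These lie at chr12:76962226-76962271 on the minus strand for Max, chr5:34187904-34187949 on the minus strand for Mxd4, chr11:74830781-74830826 on the plus strand for Mnt and chr11:101087230-101087275 on the plus strand for Mlx. The first base of the E-box stood at -3, -219, -123 and -40 from the start site in Max, Mxd4, Mnt and Mlx. No CACGTG was in these windows of Mycn, Mycl, Mxd1, Mxd3 and Mxi1. Over all genes with a promoter entry the share was 8.09% of 27025, and it was 7.15% of all 32851 promoters of this length. The members that carry it did not share a direction in the data below: under C16 in AE9a cells Max and Mlx rose, and Mxd4 and Mnt fell.

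Under C16 in AE9a cells, Myc and Max rose, the competitors Mxd1, Mxd4, Mxi1 and Mnt fell, and the less abundant Mycn fell as well. Called at an adjusted p under 0.05 (edgeR quasi-likelihood test, adjusted over all 14704 genes tested) were 9 of the 10 members, 4 higher and 5 lower. The share called among all genes was 66.3%, 33.1% higher and 33.2% lower, so the count of members is near the share of all genes. For 8 of the 10 members no C16 library overlapped the DMSO range, beside 71.6% of all genes. In bulk RNA, fewer cells of a type and less RNA per cell cannot be told apart.

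Myc (chromosome 15, 61857190 to 61862210, GRCm39), the main MYC gene of blood progenitors, had 275, 293 and 331 CPM in AE9a C16 libraries, against 205, 198 and 175 CPM in AE9a DMSO libraries. All 3 C16 libraries were above all 3 DMSO libraries, and the rise was 0.59 ± 0.09 on the log2 scale (SE, n = 3 each, adjusted p = 2.5e-04). Mycn (chromosome 12, 12986094 to 12991837), the family member best known from neural tissue and stem cells, had 9.07, 10.5 and 6.08 CPM in AE9a C16 libraries, against 16.2, 13.3 and 10.1 CPM in AE9a DMSO libraries. The groups overlapped, since C16 replicate 2 was above DMSO replicate 3, and the fall was by 0.67 ± 0.23 (adjusted p = 0.029). That call was lost on leaving out AE9a C16 replicate 1 or 3, or AE9a DMSO replicate 1 or 2 (adjusted p = 0.051, 0.061, 0.1 and 0.063). Mycl, at 0.207 to 1.43 CPM in AE9a C16 libraries and 0.446 to 1.29 CPM in AE9a DMSO libraries, had a log2 change of -0.25 ± 0.64 (adjusted p = 0.74); without AE9a C16 replicate 3 it was -1.37 (adjusted p = 0.046).

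The competitors Mxd4 and Mxd1 gave the largest changes. Mxd4 (chromosome 5, 34331231 to 34345076) had 28.7, 31.3 and 28.4 CPM in AE9a C16 libraries, against 99.7, 138 and 114 CPM in AE9a DMSO libraries. The C16 libraries lay close together and far below every DMSO library, and Mxd4 fell by 2.04 ± 0.11 on the log2 scale (adjusted p = 1.7e-06). Mxd1 (chromosome 6, 86624026 to 86646099) had 65.7, 61.8 and 44.9 CPM in AE9a C16 libraries, against 155, 159 and 162 CPM in AE9a DMSO libraries. Again no library of the groups overlapped, with C16 replicate 3 the lowest, and Mxd1 fell by 1.52 ± 0.11 (adjusted p = 5.0e-06). Mxi1 (chromosome 19, 53298509 to 53361724) stood at 45.2 to 47.6 CPM in AE9a C16 libraries and 56.1 to 63.4 CPM in AE9a DMSO libraries and fell by 0.40 ± 0.05 (adjusted p = 1.1e-04). Mnt (chromosome 11, 74721651 to 74736551), the competitor present in resting and dividing cells alike, stood at 48.8 to 53.6 CPM in AE9a C16 libraries and 59.2 to 67.1 CPM in AE9a DMSO libraries and fell by 0.34 ± 0.06 (adjusted p = 5.0e-04).

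Mxd3 went the other way from its relatives. MXD3 is the MXD protein known for its expression in dividing cells, and Mxd3 (chromosome 13, 55472983 to 55477937) had 9.17, 8.12 and 7.45 CPM in AE9a C16 libraries, against 6.39, 5.81 and 6.56 CPM in AE9a DMSO libraries. The groups did not overlap and the rise was 0.35 ± 0.11 (adjusted p = 0.018), but DESeq2 gave an adjusted p of 0.063, and the call was lost without AE9a C16 replicate 1 or AE9a DMSO replicate 2 (adjusted p = 0.089 and 0.087). Max (chromosome 12, 76984045 to 77009123) stood at 126 to 133 CPM in AE9a C16 libraries and 111 to 115 CPM in AE9a DMSO libraries and rose by 0.13 ± 0.03 (adjusted p = 0.0068). Mlx (chromosome 11, 100978116 to 100983033) stood at 41.3 to 42.1 CPM in AE9a C16 libraries and 28.3 to 29.7 CPM in AE9a DMSO libraries and rose by 0.47 ± 0.04 (adjusted p = 1.1e-05). Fragments were counted without regard to strand: exons of Mlx share 1166 bases with the opposite-strand gene Psmc3ip, those of Mxi1 share 652 bases with Gm30541, and those of Mxd3 share 103 bases with Prelid1, so these 3 counts may hold fragments of the other gene. In a fit of all 18 libraries, where the spread is larger, Mycn, Mxd3 and Mxi1 did not pass (adjusted p = 0.55, 0.24 and 0.54).

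Lineage markers moved in the same contrast, in which 33.1% of all genes were called higher and 33.2% lower. Erythroid markers summed to 2.27 to 21.6 CPM in AE9a C16 libraries, against 274 to 327 CPM in AE9a DMSO libraries, with 9 of 10 lower and a median log2 change of -4.08. Megakaryocyte markers summed to 24.4 to 83.1 CPM in AE9a C16 libraries, against 189 to 268 CPM in AE9a DMSO libraries, with 6 of 8 lower. Those of granule-forming cells split. Primary granule markers summed to 9346.4 to 11726.6 CPM in AE9a C16 libraries, against 2878.7 to 3077.1 CPM in AE9a DMSO libraries, and 5 of the 5 rose. Mast and basophil markers summed to 307 to 2315.3 CPM in AE9a C16 libraries, against 9929.2 to 13596.6 CPM in AE9a DMSO libraries, with 8 of 10 lower. Maturing neutrophil markers summed to 1432.2 to 1825.5 CPM in AE9a C16 libraries, against 3135.2 to 3616.1 CPM in AE9a DMSO libraries, with 7 of 9 lower. None of these lists had a gene at 0 throughout the AE9a C16 or the AE9a DMSO group. The part of these shifts in the changes of the members was not tested. Without AE9a C16 replicate 3, the library with Runx1t1 at the WT level, Mycl was called (adjusted p = 0.046) and Mycn was not (adjusted p = 0.061), while Myc, Mxd1 and Mxd4 changed by 0.51, -1.37 and -2.02 on the log2 scale.

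Under RE in AE9a cells, Myc and Max fell and the competitors Mxd1, Mxd4 and Mnt rose. Mycn did not follow that turn of sign, with log2 changes of -0.67 under C16 and -0.64 under RE. Called were 5 of the 10 members, 3 higher and 2 lower, beside 29% of all genes, of which 12.2% were higher and 16.8% lower, and the groups did not overlap for 7 of the 10, beside 49.1%. With the replicate number as a block, which the data supported for this pair of groups, Mycn and Mycl were also called lower, and the count was 7 beside 31.2% of all genes. The C16 and RE comparisons share the same DMSO libraries, so they are not independent.

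Myc had 160, 158 and 136 CPM in AE9a RE libraries, against 205, 198 and 175 CPM in AE9a DMSO libraries. Every RE library was below every DMSO library, and Myc fell by 0.38 ± 0.09 on the log2 scale (adjusted p = 0.012; 0.052 without AE9a DMSO replicate 1). Mxd1 had 236, 233 and 228 CPM in AE9a RE libraries, against 155, 159 and 162 CPM in AE9a DMSO libraries. The RE libraries were again separate and rose by 0.51 ± 0.11 (adjusted p = 0.0099). Mxd4 had 146, 167 and 163 CPM in AE9a RE libraries, against 99.7, 138 and 114 CPM in AE9a DMSO libraries. The lowest RE library was just above the highest DMSO library, and the rise of 0.40 ± 0.11 (adjusted p = 0.022) was lost on leaving out AE9a RE replicate 2 or 3, or AE9a DMSO replicate 1 or 3 (adjusted p = 0.081, 0.072, 0.063 and 0.071).

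Mnt stood at 75.7 to 78.4 CPM in AE9a RE libraries and 59.2 to 67.1 CPM in AE9a DMSO libraries and rose by 0.27 ± 0.05 (adjusted p = 0.007). Max stood at 101 to 106 CPM in AE9a RE libraries and 111 to 115 CPM in AE9a DMSO libraries and fell by 0.17 ± 0.03 (adjusted p = 0.0077). The other 5 members did not pass: Mycn had a log2 change of -0.64 ± 0.23 (adjusted p = 0.068, but 0.0066 with the block and 0.033 with DESeq2), Mycl -2.28 ± 0.84 (adjusted p = 0.071, and 0.011 with the block), Mxd3 -0.32 ± 0.11, Mxi1 -0.03 ± 0.05 and Mlx -0.09 ± 0.04. In a fit of all 18 libraries, whose spread is larger because of the WT groups, 1 member (Mnt) was called for RE.

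Lineage markers moved under RE too, where 12.2% of all genes were called higher and 16.8% lower. Of 8 stem and progenitor markers, 1 rose and 3 fell, with a median log2 change of -0.33. Kit was the 1 that rose, by 0.56 ± 0.15, whereas Flt3 and Hlf fell by 1.43 and 1.10. Primary granule markers summed to 1506.8 to 1726.5 CPM in AE9a RE libraries, against 2878.7 to 3077.1 CPM in AE9a DMSO libraries, and 5 of the 5 fell. Of the 6 monocyte markers 5 fell, with sums of 536 to 801 CPM in AE9a RE libraries, against 988 to 1037.5 CPM in AE9a DMSO libraries. Of the 10 erythroid markers 4 fell, with sums of 138 to 182 CPM in AE9a RE libraries, against 274 to 327 CPM in AE9a DMSO libraries. Mast and basophil markers summed to 16956.9 to 19559.7 CPM in AE9a RE libraries, against 9929.2 to 13596.6 CPM in AE9a DMSO libraries. Megakaryocyte markers summed to 314 to 395 CPM in AE9a RE libraries, against 189 to 268 CPM in AE9a DMSO libraries. For both lists the sums did not overlap, although 0 of the 10 and 0 of the 8 markers passed by themselves. Among 9 maturing neutrophil markers 3 rose and 1 fell. The part of these shifts in the changes of the members under RE was not tested.

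Set against each other in AE9a cells, C16 and RE parted 8 of the 10 members, 4 higher and 4 lower under C16, beside 74.6% of all genes (37.5% higher and 37.2% lower), and the groups did not overlap for 9 of the 10, beside 77.8%. Mxd4 was lower under C16 by 2.44 ± 0.11 on the log2 scale (adjusted p = 2.0e-07) and Mxd1 by 2.02 ± 0.12, while Myc was higher by 0.97 ± 0.09 (adjusted p = 6.5e-06). Mxd3, Mlx and Max were higher under C16 by 0.67, 0.56 and 0.30, and Mnt and Mxi1 had log2 differences of -0.61 and -0.37. Mycn stood at 9.07, 10.5 and 6.08 CPM under C16 and 10.2, 8.97 and 6.83 CPM under RE, with a log2 difference of -0.02 ± 0.24 (adjusted p = 0.93).

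**Figure D2:**
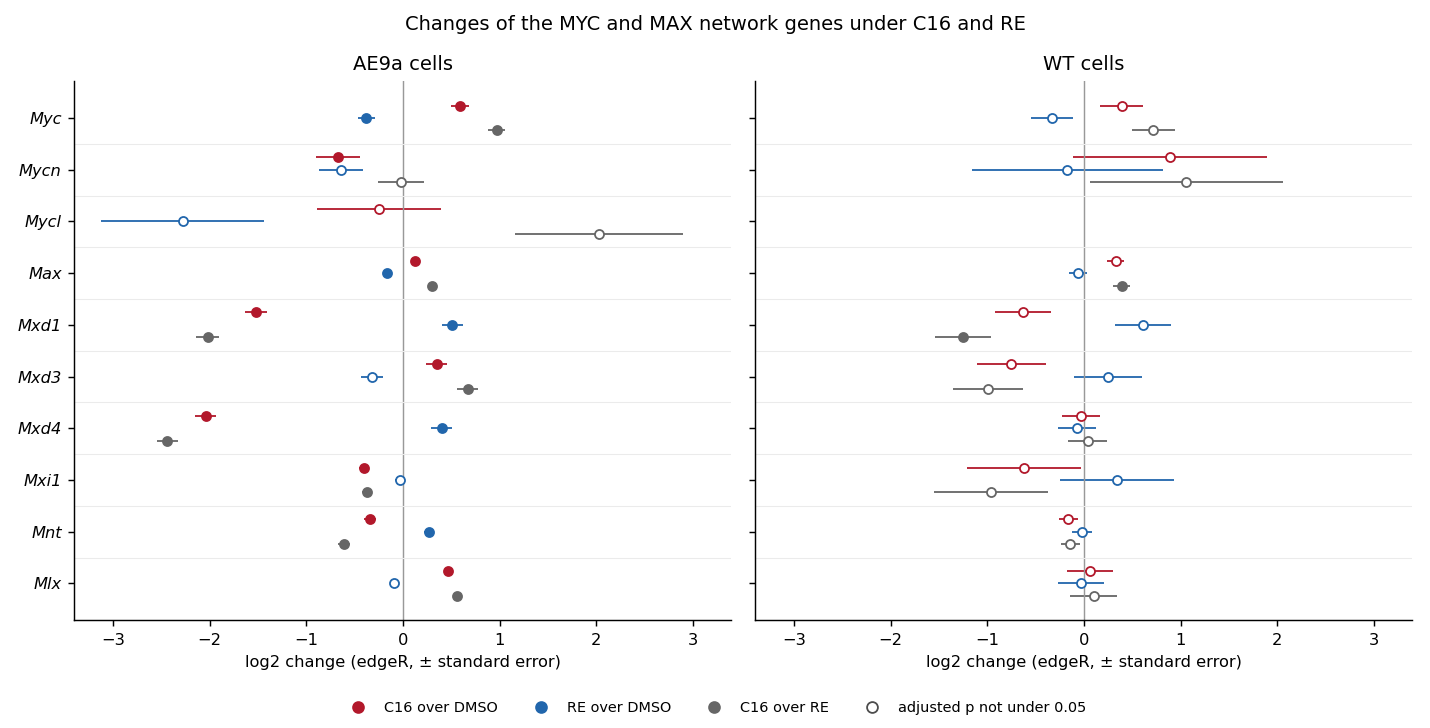
Log2 change of each gene (horizontal axis, edgeR estimate ± standard error) for C16 over DMSO, RE over DMSO and C16 over RE, in AE9a cells (left) and WT cells (right); open points have an adjusted p of 0.05 or more, and Mycl was not tested in WT cells. In AE9a cells Myc lies at 0.59 under C16 and -0.38 under RE while Mxd1 lies at -1.52 and 0.51; in WT cells only Max and Mxd1 are filled, both for C16 over RE.

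In WT cells the changes of Myc, Max and Mxd1 had the same signs as in AE9a cells for either compound, but few passed the test. Under C16, Mycn and Mxd3 had the opposite sign, at 0.41 to 1.42 and -1.06 to -0.4 in WT cells on leaving out 1 library. Under RE, Mxd3 averaged 9.85 CPM against 8.3 CPM under DMSO in WT cells, but 5.15 against 6.25 CPM in AE9a cells. Mxd4 averaged 60.8 against 63.8 CPM in WT cells, but 158 against 117 CPM in AE9a cells. For C16 against DMSO, 0 of the 9 members tested were called, beside 3.1% of all 15046 genes. At an unadjusted p under 0.05 there was 1 member, Max, beside 3430 of all 15046 genes. DESeq2 also called Max as its 1 member, beside 11.8% of all genes. The groups did not overlap for 2 of the 9, beside 29.6%. The biological coefficient of variation between replicates in WT cells was 0.329, against 0.103 in AE9a cells, and it was 0.137 in WT cells with the replicate number as a block. The numbers deviated together in all 3 pairs of WT groups, so blocked counts are given beside the others. With the block 2 members were called for C16, Max higher and Mxd3 lower, beside 24.2% of all genes. Without the 3 libraries numbered 2, 5 were called, Mycn and Max higher and Mxd1, Mxd3 and Mxi1 lower, beside 41.7%.

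Max had 113, 125 and 109 CPM in WT C16 libraries, against 90.1, 95.7 and 91.4 CPM in WT DMSO libraries. The C16 libraries were all above the DMSO libraries, with a log2 change of 0.33 ± 0.09 (adjusted p = 0.079, and 0.012 with the block). Mxd1 had 109, 77.9 and 94.4 CPM in WT C16 libraries, against 150, 150 and 139 CPM in WT DMSO libraries. Here too the groups did not overlap, with a log2 change of -0.63 ± 0.29 (adjusted p = 0.23, 0.13 with the block and 0.0018 without the libraries numbered 2). Myc had 164, 272 and 157 CPM in WT C16 libraries, against 145, 164 and 145 CPM in WT DMSO libraries. C16 replicate 2 was the high library, but C16 replicate 3 was below DMSO replicate 2 and the groups overlapped, with a log2 change of 0.39 ± 0.22 (adjusted p = 0.33, and 0.076 with the block), and 0.09 without WT C16 replicate 2. Mxd4 had 68.9, 43.9 and 73.2 CPM in WT C16 libraries, against 71.1, 52.3 and 67.9 CPM in WT DMSO libraries, which lie in the same range (log2 change -0.03 ± 0.20, adjusted p = 0.93, and -0.05 with the block, adjusted p = 0.79).

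For RE against DMSO in WT cells 0 of the 9 members were called, beside 0.0266% of all genes. With the block 0 were called, beside 0.512%. DESeq2 also called 0, beside 0.425%, and 0 had an unadjusted p under 0.05, beside 665 of all 15046 genes. The groups did not overlap for 2, Myc and Mxd1, beside 13.1%. Mxd1 had 156, 342 and 175 CPM in WT RE libraries, against 150, 150 and 139 CPM in WT DMSO libraries. Replicate 2 was far above the others and all 3 were above DMSO, with a log2 change of 0.61 ± 0.29 (adjusted p = 1, and 0.45 with the block). Myc had 104, 141 and 117 CPM in WT RE libraries, against 145, 164 and 145 CPM in WT DMSO libraries, all RE libraries being lower (log2 change -0.33 ± 0.22, adjusted p = 1, and 0.33 with the block). Without the libraries numbered 2 Myc was the 1 member called, lower by 0.40 ± 0.06 on the log2 scale (adjusted p = 0.0089), beside 8.02% of all genes.

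C16 against RE in WT cells called 2 of the 9 members, beside 11.9% of all genes, and 4 had no overlap of the groups, beside 35.1%. Max was higher under C16 by 0.39 ± 0.09 on the log2 scale (adjusted p = 0.029), and Mxd1 was lower by 1.25 ± 0.29 (adjusted p = 0.033). Both calls depended on single libraries: Max was lost without WT C16 replicate 1 or 3 or WT RE replicate 1 or 3 (adjusted p = 0.068, 0.058, 0.1 and 0.093), and Mxd1 without any WT C16 library or WT RE replicate 3 (adjusted p = 0.066, 0.067, 0.088 and 0.054). With the block 6 members were called, beside 34.2% of all genes. They were Myc (higher by 0.69 ± 0.13, adjusted p = 0.0068), Mycn and Max, all higher, and Mxd1, Mxd3 (log2 -1.01, adjusted p = 0.0026) and Mxi1, all lower. Without the libraries numbered 2 these 6 and Mxd4 were called, beside 44.3%.

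Between the genotypes under DMSO, Max and Mxd4 were higher in AE9a cells and no other member passed, 2 of 10 beside 26.7% of the 15809 genes tested. The groups did not overlap for 4 (Myc, Max, Mxd1 and Mxd4), beside 47.7%. Max had 114, 115 and 111 CPM in AE9a DMSO libraries, against 90.1, 95.7 and 91.4 CPM in WT DMSO libraries, and was higher by 0.30 ± 0.06 on the log2 scale (adjusted p = 0.0022). Mxd4 had 99.7, 138 and 114 CPM in AE9a DMSO libraries, against 71.1, 52.3 and 67.9 CPM in WT DMSO libraries, and was higher by 0.88 ± 0.17 (adjusted p = 0.0015). For Max and Mxd4 every AE9a library was above every WT library. Myc had a log2 difference of 0.35 ± 0.18 (adjusted p = 0.16), with no overlap of the libraries, and it passed in a fit of the 6 DMSO libraries alone (adjusted p = 0.025). Without the libraries numbered 2, 6 members were called beside 50.7% of all genes: Myc, Max, Mxd4, Mxi1 and Mlx higher in AE9a cells and Mycn lower.

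The response to C16 differed between the genotypes for Mxd4. Mxd4 fell by 2.04 in AE9a cells, against a log2 change of -0.03 in WT cells, and the difference between the 2 responses was -1.95 ± 0.24 on the log2 scale (adjusted p = 2.6e-04). Mxd4 was the 1 member called of 10, beside 13.1% of all genes. The call held in each of the 12 fits that left out 1 library, with values from -2.14 to -1.81. Runx1t1 stood at 2.44, 4.22 and 0.211 CPM in AE9a C16 libraries, against 33.4, 46.2 and 37.8 CPM in AE9a DMSO libraries. By root mean square log2 difference over genes, AE9a C16 replicates 1, 2 and 3 lay 0.7, 0.73 and 0.74 from WT C16 replicate 2. They lay 0.87 to 1.38 from the AE9a DMSO libraries. The part of fewer AE9a-bearing cells in the Mxd4 difference was not tested. Mxd3 had a difference of 1.16 ± 0.38 (adjusted p = 0.06), Mxd1 -0.83 ± 0.32 (adjusted p = 0.1) and Myc 0.25 ± 0.25 (adjusted p = 0.49), none of which passed. With the block, which the numbers support in WT cells but not for C16 and DMSO in AE9a cells, 4 members were called beside 36.8% of all genes, Mxd3 (1.14) and Mlx (0.46) with a positive difference and Mxd4 (-1.92) and Mycn (-1.31) with a negative one. Without the libraries numbered 2, 6 were called beside 49.8%, Myc (0.50) and Mxd1 (-0.96) joining those 4. For the RE response 0 of 10 members differed between the genotypes, beside 0% of all genes. At an unadjusted p under 0.05 there were 2 members, beside 676 of all 15809 genes. DESeq2 called 0 members, beside 0.198% of all genes.

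The balance of activators and competitors was put into 1 figure per library, the log2 ratio of the summed TPM of Myc, Mycn and Mycl over the summed TPM of Mxd1, Mxd3, Mxd4, Mxi1 and Mnt. It was 1.48, 1.57 and 1.89 in AE9a C16 libraries, -0.68, -0.76 and -0.96 in AE9a RE libraries, and 0.15, -0.09 and -0.20 in AE9a DMSO libraries. The 3 AE9a groups did not overlap: C16 was above DMSO by 1.70 ± 0.16 and RE was below DMSO, with a difference of -0.76 ± 0.13. In WT cells it was 1.03, 1.25 and 1.17 in C16 libraries, -0.11, -1.06 and 0.03 in RE libraries, and 0.31, -0.12 and 0.39 in DMSO libraries. C16 was thus above DMSO in WT cells too, by 0.96 ± 0.17 with no overlap. The MYC-family sum was made up differently there. Mycn had 125, 10.6 and 148 TPM in WT C16 libraries, against 71.3, 11.4 and 73.7 TPM in WT DMSO libraries. Myc had 177, 275 and 167 TPM in WT C16 libraries, against 157, 172 and 160 TPM in WT DMSO libraries. In AE9a cells Mycn averaged 7.97 TPM under C16 and 13.2 TPM under DMSO. RE and DMSO in WT cells overlapped through DMSO replicate 2 (difference -0.57 ± 0.38, and -0.23 without WT RE replicate 2). Within pairs of the same number, RE minus DMSO in WT cells was -0.42, -0.94 and -0.35, below 0 in 3 of 3 pairs (mean -0.57 ± 0.18, SE), and C16 minus DMSO was 0.72, 1.37 and 0.78. The exact paired permutation test gave p = 0.25 for either, the smallest p that 3 pairs allow. Without pairing, the exact 2-sided permutation test gave p = 0.1 for each C16 contrast and for RE against DMSO in AE9a cells, the smallest p that 3 against 3 libraries allow, and p = 0.3 for RE against DMSO in WT cells and for AE9a against WT cells under DMSO (difference -0.24 ± 0.19, from -0.40 without WT DMSO replicate 2 to -0.14 without WT DMSO replicate 3). In linear terms the ratio of MYC-family transcripts to the competitors was 2.79, 2.98 and 3.71 to 1 in AE9a C16 libraries, against 1.11, 0.942 and 0.869 to 1 in AE9a DMSO libraries.

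**Figure D3:**
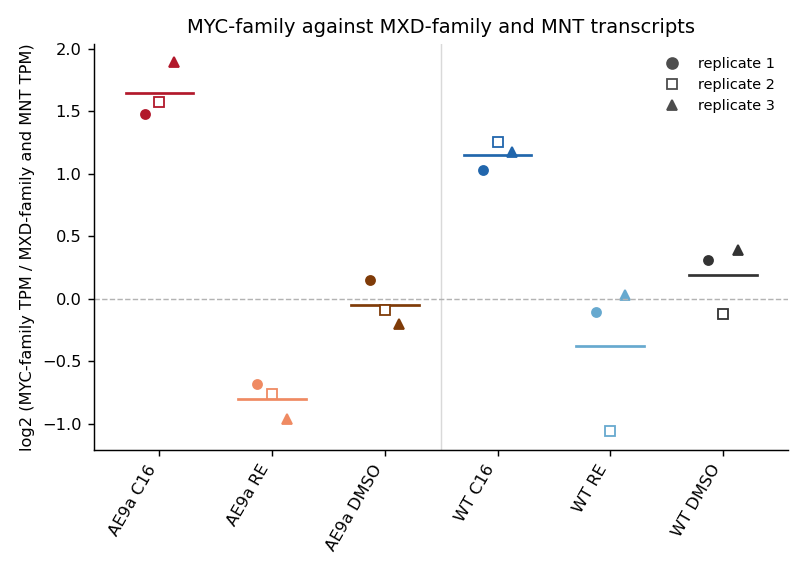
Log2 ratio of MYC-family to MXD-family and MNT transcripts (vertical axis, from TPM) in each library by group; bars are means of 3 libraries, open squares are replicates numbered 2 and the dashed line marks equal amounts. C16 libraries lie at 1.48 to 1.89 in AE9a cells and 1.03 to 1.25 in WT cells, above every other library.

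The rest of the pathway was read from lists of genes. In AE9a cells 33.1% of all genes were called higher and 33.2% lower under C16, and 12.2% and 16.8% under RE. Of 40 genes that MYC is known to activate, 37 rose and 1 fell under C16 in AE9a cells, with a median log2 change of 0.73, against 0.00 over all genes tested. Hspd1, a mitochondrial chaperonin, averaged 1457.2 ± 70.2 CPM in AE9a C16 cells, against 594 ± 39.1 CPM in AE9a DMSO cells, a rise of 1.25 ± 0.07 (adjusted p = 1.6e-06). Npm1, a nucleolar ribosome assembly factor, averaged 2306.6 ± 120 CPM in AE9a C16 cells, against 958 ± 66.7 CPM in AE9a DMSO cells, and rose by 1.22 ± 0.06. The exception was Ccnd2, a cyclin of the start of the cell cycle, which fell by 1.27 ± 0.10 (339 ± 30.5 CPM in AE9a C16 cells, against 789 ± 96.5 CPM in AE9a DMSO cells). Under RE the list turned round: 36 fell and 1 rose in AE9a cells, with a median of -0.32 against -0.01 over all genes. Ppat, a purine synthesis enzyme, fell by 0.45 ± 0.04 (75.3 ± 1.97 CPM in AE9a RE cells, against 100 ± 4.76 CPM in AE9a DMSO cells), and Ccnd2 was the gene that rose, by 0.75 ± 0.10.

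In WT cells the activated targets had a median log2 change of 0.57 under C16 against 0.01 over all genes, but 2 of 40 passed, Nme1 (206 ± 8.92 CPM in WT C16 cells, against 128 ± 5.33 CPM in WT DMSO cells) and Eif4a1. The share of all genes called was 3.1%. With the block 25 rose and 1 fell, beside 24.2% of all genes called. Without the libraries numbered 2, 35 rose and 1 fell with a median of 0.38, beside 41.7%. C16 against RE in WT cells put 28 of 40 higher and 0 lower, with a median of 0.74 against -0.01, beside 11.9% of all genes called. Under RE in WT cells 0 of 40 passed, with a median of -0.21, beside 0.0266%. The difference between the genotypes in the C16 response was called for 1 of 40, lower, beside 13.1%. Without the libraries numbered 2 it was called for 34 higher and 2 lower, beside 49.8%. As in the promoters of the members, CACGTG was counted in those of this list: 12 of the 34 with an entry (35.3%) held it, against 1 of 16 cell cycle genes (6.25%) and 8.09% of all genes.

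Genes that MYC is known to repress went the opposite way under C16 in AE9a cells, 9 of 12 lower and 2 higher, with a median of -0.59. Of all genes 33.2% were called lower and 33.1% higher. Cdkn2b, a cyclin-dependent kinase inhibitor gene, averaged 0.422 ± 0.371 CPM in AE9a C16 cells, against 6.01 ± 1.28 CPM in AE9a DMSO cells (log2 -3.79 ± 0.48, adjusted p = 9.6e-05). Ndrg2, a growth-restraining gene, fell by 1.52 ± 0.10, while Gadd45a, a stress response gene, rose by 0.72 ± 0.13. Under RE in AE9a cells 3 of 12 rose and 0 fell, beside 12.2% and 16.8% of all genes. These were Ndrg1, Btg1 and Ccng2, which rose by 0.65, 0.47 and 0.30. All 20 cell cycle genes rose under C16 and all 20 fell under RE in AE9a cells, with medians of 0.79 and -0.49. Cdc20, a mitotic activator, stood at 160 ± 3.37 CPM in AE9a C16 cells, against 76.5 ± 6.21 CPM in AE9a DMSO cells. In WT cells 0 of these 20 passed for either compound against DMSO (medians 0.21 and -0.17), beside 3.1% and 0.0266% of all genes. With the block 1 and 0 passed, beside 24.2% and 0.512%. For C16 against RE in WT cells 0 of 20 passed, beside 11.9%. There 12 were higher with the block and 14 without the libraries numbered 2, beside 34.2% and 44.3%. The difference between the genotypes in the C16 response was called for 0 of 20 (median 0.67), beside 13.1%. It was called for 19 with the block and for 20 without the libraries numbered 2, all of them positive, beside 36.8% and 49.8%. Cell cycle genes and MYC targets thus moved together with Myc in AE9a cells, and the part of proliferation in the Myc change was not tested.

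**Figure D4:**
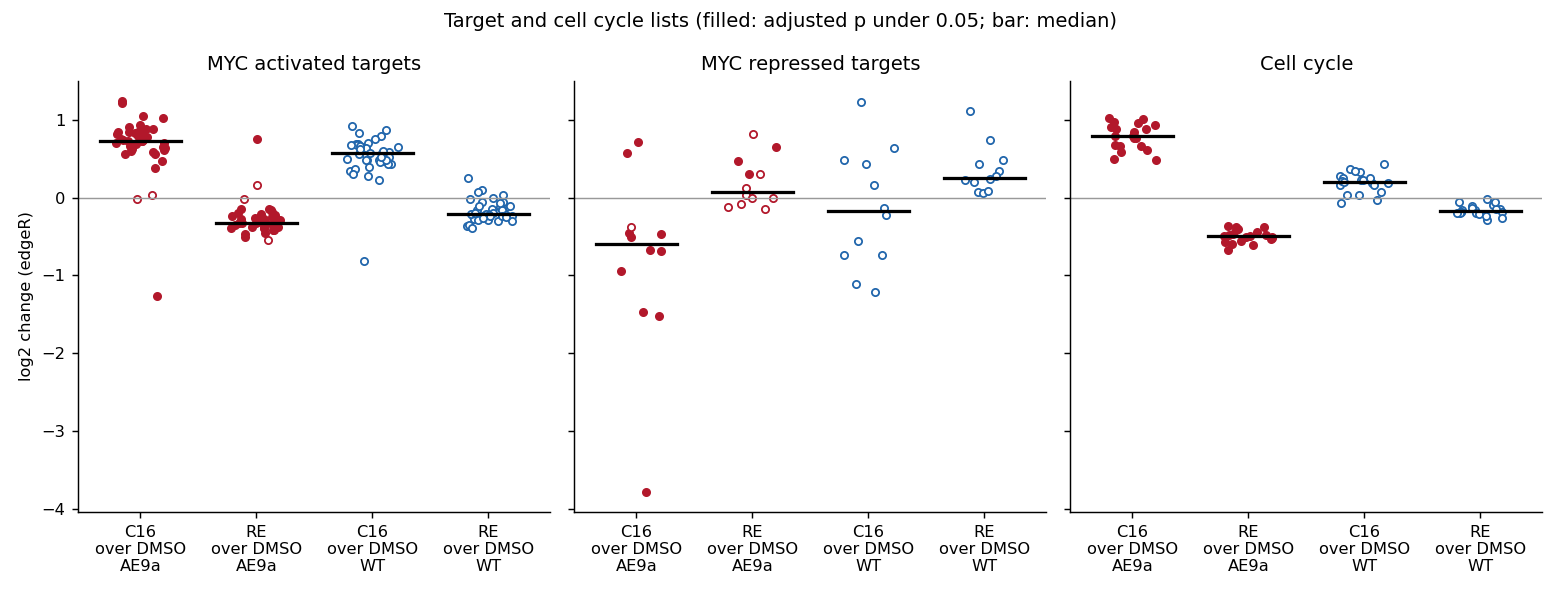
Log2 change (vertical axis, edgeR) of each gene of 3 lists, for C16 over DMSO and RE over DMSO in AE9a cells (red) and WT cells (blue); filled points have an adjusted p under 0.05 and bars are medians. Activated targets centre on 0.73 and -0.32 in AE9a cells and 0.57 and -0.21 in WT cells, and the lowest point is Cdkn2b at -3.79.

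Genes for partners of MYC were read in the same way. Of 20 coactivators and partners, 15 rose and 1 fell under C16 in AE9a cells, with a median of 0.17. Under RE 1 rose and 7 fell, with a median of -0.06. The medians of all genes were 0.00 and -0.01, and 66.3% of all genes were called under C16 and 29% under RE. Ruvbl2, a helicase that MYC recruits, rose by 0.86 ± 0.04 under C16 (221 ± 8.88 CPM in AE9a C16 cells, against 118 ± 3.26 CPM in AE9a DMSO cells) and fell by 0.34 ± 0.04 under RE. Bin1, a MYC-interacting tumour suppressor gene, was the one that fell under C16, by 0.82 ± 0.13. Wdr5, which encodes a MYC cofactor and a protein named as a drug target by the study, had 169, 172 and 187 CPM in AE9a C16 libraries, against 136, 133 and 136 CPM in AE9a DMSO libraries, and rose by 0.33 ± 0.04 (adjusted p = 1.4e-04).

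Of 15 SIN3 corepressor genes, 10 rose and 2 fell under C16 in AE9a cells, with a median of 0.34, beside 33.1% and 33.2% of all genes. Rbbp7, a histone-binding subunit, rose by 0.84 ± 0.05 and Sin3b, a scaffold, fell by 0.56 ± 0.04. Of 15 genes that act on MYC protein turnover, 11 rose and 4 fell, beside the same shares of all genes. Fbxw7, the ubiquitin ligase subunit that marks MYC for destruction, had 24.2, 27.6 and 25.9 CPM in AE9a C16 libraries, 74.8, 82.5 and 86.4 CPM in AE9a RE libraries and 46.4, 62.7 and 55.2 CPM in AE9a DMSO libraries. The 3 groups did not overlap: Fbxw7 fell by 1.13 ± 0.11 under C16 (adjusted p = 1.7e-05) and rose by 0.53 ± 0.10 under RE (adjusted p = 0.0062), which is opposite to Myc in each case. Aurka and Plk1, mitotic kinases that stabilise MYC proteins, rose by 1.02 and 0.90 under C16. Of the 15 turnover genes, 2 rose and 10 fell under RE in AE9a cells, and Plk1 fell by 0.50. Among all genes 12.2% were called higher and 16.8% lower under RE. In WT cells Fbxw7 stayed between 21.8 and 31.4 CPM in all 9 libraries, and its C16 response differed between the genotypes by -1.17 ± 0.20 (adjusted p = 0.0023).

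Of the other MAX and MLX partners, Mga, a MAX-binding repressor, rose by 0.32 ± 0.04 under C16 and fell by 0.20 ± 0.04 under RE in AE9a cells (179 ± 2.36, 124 ± 4.49 and 139 ± 4.54 CPM under C16, RE and DMSO). Targets of MLX and its glucose-sensing partners were mixed, with 4 higher and 3 lower of 10 tested under C16 and a median of 0.05. These counts are near the 33.1% and 33.2% of all genes called higher and lower. Txnip, the best known of them and an inhibitor of glucose uptake, fell by 2.65 ± 0.24 (105 ± 35.6 CPM in AE9a C16 cells, against 634 ± 102 CPM in AE9a DMSO cells), and Elovl6, a fatty acid elongase, rose by 1.14 ± 0.08.

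At the Myc locus the neighbour Pvt1 parted from Myc. Pvt1 (chromosome 15, 61909835 to 62132064), a long noncoding RNA gene that starts 47625 bases beyond the end of Myc, had 6.74, 8.08 and 7.98 CPM in AE9a C16 libraries, 12.9, 16.8 and 16.8 CPM in AE9a RE libraries and 15.6, 17 and 15.6 CPM in AE9a DMSO libraries. Every C16 library was below every other AE9a library, and Pvt1 fell by 1.13 ± 0.12 on the log2 scale (adjusted p = 3.6e-05) where Myc rose by 0.59; under RE its change was -0.09 ± 0.12 (adjusted p = 0.6). In WT cells Pvt1 had 19.1, 11.8 and 17.3 CPM under C16, against 15.3, 9.42 and 17.1 CPM under DMSO, with a log2 change of 0.21 ± 0.31 (adjusted p = 0.74). The C16 response of Pvt1 differed between the genotypes by -1.28 ± 0.35 (adjusted p = 0.029). Leaving out 1 library gave adjusted p from 0.052 to 0.081 in 7 of 12 cases, those without AE9a C16 replicate 1 or 3, AE9a DMSO replicate 2 or 3, WT C16 replicate 1 or 3, or WT DMSO replicate 2. Of the 8 neighbours tested, Cyrib, Lratd2 and Asap1 rose under C16 (by 0.48, 0.47 and 0.42) and fell under RE. Pvt1 and Trib1 fell under C16, and Nsmce2, Washc5 and Sqle did not pass. Among all genes 66.3% were called under C16 and 29% under RE.

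Mycn and Mxi1 varied more between WT replicates than between treatments. Mycn had 125, 11.3 and 151 CPM in WT C16 libraries, 54.6, 13.6 and 70 CPM in WT RE libraries and 71.5, 11.7 and 72.2 CPM in WT DMSO libraries. Replicate 2 was low each time, in the range of 6.08 to 16.2 CPM of the 9 AE9a libraries. Megakaryocyte markers were low in the same libraries: their sum was 139 to 295 CPM in the WT libraries numbered 2, 24.4 to 395 CPM in AE9a libraries and 1865.4 to 8187.7 CPM in the other 6 WT libraries, and the 2 WT C16 libraries highest in Mycn were highest in that sum. None of the 8 megakaryocyte markers was at 0 throughout a group, and the part of megakaryocyte RNA in the Mycn level was not tested. Against WT DMSO cells, Mycn in AE9a DMSO cells had a log2 difference of -1.97 ± 0.80 (adjusted p = 0.082), and -2.44 without WT DMSO replicate 2 (adjusted p = 0.032).

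Mxi1 had 31.3, 54.2 and 26.4 CPM in WT C16 libraries, 40.2, 142 and 36.8 CPM in WT RE libraries and 39.8, 89.8 and 43.5 CPM in WT DMSO libraries. Here replicate 2 was high each time, and the maturing neutrophil markers were high with it, at 3703.7, 21486.6 and 9799.2 CPM under C16, RE and DMSO, against 1896.6 to 3222.0 CPM in the other WT libraries. Monocyte markers were high in these libraries as well, at 809, 1871.0 and 2029.8 CPM, against 322 to 792 CPM in the other WT libraries. So were primary granule markers, at 9360.8, 5716.4 and 8143.2 CPM, against 1169.3 to 2360.1 CPM. Mxd3, Mlx, Myc and Max were also highest in replicate 2 of every WT group, and Mxd4 was lowest there. The part of neutrophil, monocyte or other granule-forming cell RNA in these levels was not tested.

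**Figure D5:**
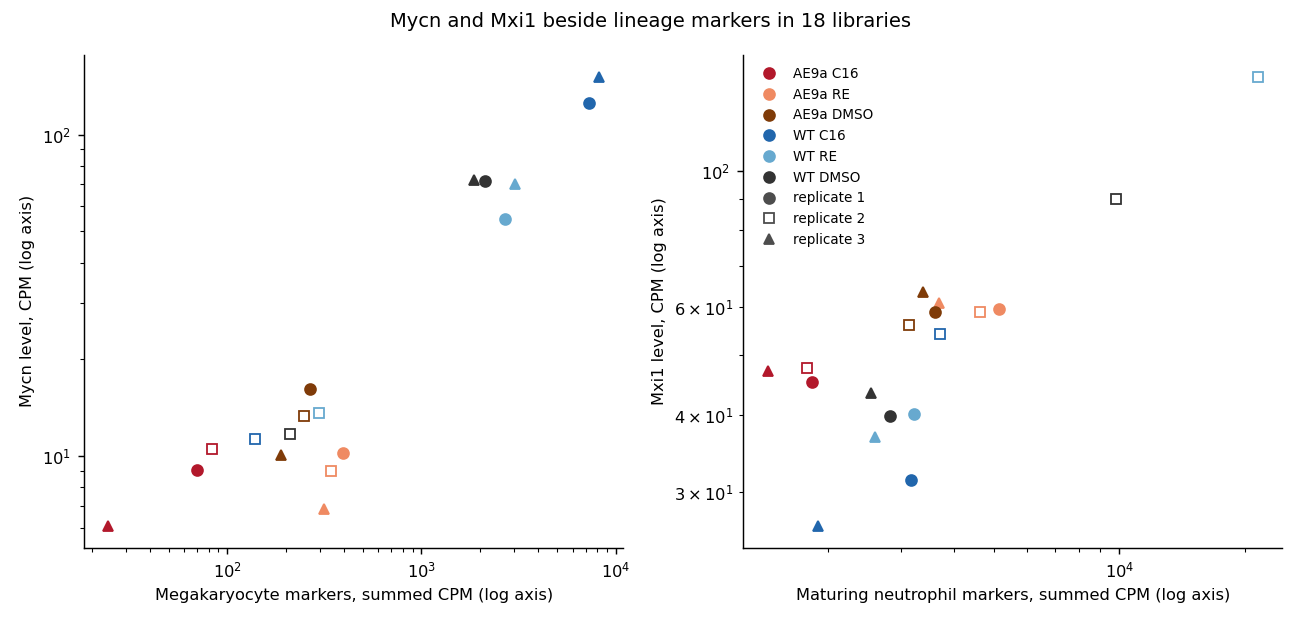
Mycn against summed megakaryocyte markers (left) and Mxi1 against summed maturing neutrophil markers (right) in 18 libraries, CPM on log axes; colours are groups and open squares are replicates numbered 2. WT replicates 1 and 3 lie at 54.6 to 151 CPM of Mycn, all other libraries at 6.08 to 16.2 CPM, and WT RE replicate 2 has the highest Mxi1 at 142 CPM.

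Ordered by mean level, Myc ran from AE9a C16 (300 CPM) through WT C16 (198), AE9a DMSO (192), AE9a RE (152) and WT DMSO (151) to WT RE (121). Libraries of WT C16 overlapped those of AE9a DMSO, and AE9a RE overlapped WT DMSO. Differences between these neighbours were not tested. Mxd1 ran from AE9a RE (232 CPM) and WT RE (224), which overlapped, through AE9a DMSO (159), WT DMSO (146) and WT C16 (93.9) to AE9a C16 (57.5). Mxd4 ran from AE9a RE (158 CPM) and AE9a DMSO (117) to the 3 WT groups (60.8 to 63.8 CPM), which overlapped, and AE9a C16 (29.5). Max and Mlx were highest in AE9a C16 (129 and 41.8 CPM).

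Genes with the most similar pattern were sought by the root mean square difference of log2 CPM, each gene centred on its own mean over the 18 libraries, among 10701 genes of at least 5 CPM. Nearest to Myc were Htra2, Anapc5 and G3bp1 (0.12, 0.12 and 0.13, beside 0.45 for the spread of Myc itself). Nearest to Mxd4 were Tef, Ppp2r5b and Marchf8 (0.20, 0.22 and 0.22, beside 0.79), and nearest to Mxd1 were Trp53inp2, Tjp3 and Crebl2 (0.22, 0.24 and 0.24, beside 0.74). Nearest to Mycn were Zfpm1, Myct1 and Pear1 (0.32, 0.33 and 0.37, beside 1.47). For Mxi1 they were Sp140, Rubcnl and Sqor, for Mnt Hcls1, Nsd3 and Psenen, for Mlx Map3k4, Tkt and Qki, for Max Fxr1, Sltm and Btf3, and for Mxd3 Cebpb, Ncf4 and Tcirg1. These likenesses describe the 18 libraries and carry no test.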

How the data were processed

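The deposited values are raw counts of fragments per gene, 1 table per genotype, in 18 libraries of cKit-selected bone marrow total RNA (6 groups of 3). Per the submitters' processing notes, HISAT2 2.1.0 and featureCounts 2.0.3 were used, with fastp 0.23.2, FastQC 0.11.9 and DESeq2, on GRCm39; per the file headers, featureCounts 1.6.2 counted read pairs over exons without strand. Which version applies is not known.

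From these counts, genes kept by filterByExpr (14704 in AE9a, 15046 in WT, 15809 in all libraries) were scaled by TMM and tested with the quasi-likelihood method of edgeR 4.0.16, with p-values adjusted after Benjamini and Hochberg and called under 0.05. The fit for the compounds held the 9 libraries of 1 genotype, and that for genotypes and differences in response held all 18. Printed CPM were scaled over all 18 libraries. Log2 changes for the compounds were scaled within 1 genotype, so small ones, such as that of Max, can differ from the ratio of the printed levels. TPM was computed from counts and the tables' gene lengths. The script was tested on simulated data. Same-number correlations of deviations from group means were 0.53 to 0.84 in WT pairs and 0.25 to 0.34 for RE and DMSO in AE9a cells, where numbers pair libraries; that of C16 and DMSO in AE9a cells was as low as 0.06.

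Alternatives were RLE and upper-quartile scaling, no filter, DESeq2 1.42.0, a replicate block, other library sets and leaving out each library. List counts with a block or without doubted libraries, and the ratio within pairs or without the WT libraries numbered 2, were added after seeing the data. Named genes were all members, up to 4 called genes per list and comparison with at least 5 CPM and no overlap (some are printed), 5 fixed genes and 3 nearest patterns per member. Wdr5 is a fixed gene; Trib1, Nsmce2, Washc5, Sqle and Eif4a1 complete a count. Members and lists were chosen with earlier results of these data known. Promoter sequences come from RefSeq on GRCm38.p6 and were not joined to GRCm39 positions.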

Additional observations from a re-analysis of the deposited data

Results flagged for a closer look

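Mxd4 was picked out because its response to C16 differed between the genotypes in a test of the difference itself, -1.95 on the log2 scale (AE9a minus WT). Pvt1 was picked out by the same test, with -1.28. Groups of 3 libraries are too small for the outlier test used elsewhere, and it was not run.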

How the results depend on the processing

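The count of members called kept within 1.5 times of its value for C16 against DMSO and against RE in AE9a cells in every alternative, and was 0 throughout for the difference in the RE response. For RE against DMSO in AE9a cells it was 1 in a fit of all 18 libraries and 3 to 5 on leaving out 1 library. For C16 against DMSO in WT cells it was 1 with DESeq2, 2 with the replicate block, 1 in a fit of all 18 libraries and 5 without the 3 WT libraries numbered 2. For RE against DMSO in WT cells it was 1 without those libraries. For C16 against RE in WT cells it was 1 with no filter, 6 with the block, 4 in a fit of all 18 libraries, 7 without the libraries numbered 2 and 0 to 2 on leaving out 1 library. For AE9a against WT cells it was 6 without them and 2 to 3 on leaving out 1 library. For the difference in the C16 response it was 2 with upper-quartile scaling, 3 with DESeq2, 4 with the block, 6 without the libraries numbered 2 and 1 to 4 on leaving out 1 library. Apart from fewer samples in some, the causes were not tested. For C16 in AE9a cells, where the numbers do not pair the libraries, the block left the count of members unchanged. The differences in the log2 ratio kept their direction in every alternative, with 0.75, -0.39 and 1.14 for C16 against DMSO, RE against DMSO and C16 against RE in WT cells without the libraries numbered 2. On leaving out 1 library the ratio differences ran from -0.78 to -0.23 for RE against DMSO in WT cells and from -0.40 to -0.14 for AE9a against WT cells, and each of the other 5 stayed within 1.5 times of its value. Pairing by the replicate block left the differences as they were, with an exact paired permutation p = 0.25 in all 4 comparisons where numbers pair the libraries.

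Among all genes, calls for C16 against DMSO in WT cells numbered 467, against 206 with no filter, 1671 with DESeq2, 3646 with the block, 2999 in a fit of all 18 libraries and 6341 without the libraries numbered 2. For RE against DMSO in WT cells they numbered 4, against 71, 77, 29 and 1219 with DESeq2, the block, all 18 libraries and without number 2, and for C16 against RE 1789, against 920 with no filter, 3003, 5145, 4497 and 6737. For RE in AE9a cells they numbered 4261, against 500 in a fit of all 18. For AE9a against WT cells they numbered 4225, against 8172 without number 2. For the C16 response they numbered 2065, against 5813 with the block and 8038 without number 2, and for the RE response 0, against 34 with DESeq2, 7 with the block and 201 without number 2. On leaving out 1 library the calls ran from 0 (without WT C16 replicate 1 or 3, or WT DMSO replicate 1) to 1329 (without WT C16 replicate 2) for C16 against DMSO in WT cells, where WT DMSO replicates 2 and 3 gave 253 and 2. They ran from 0 to 1 for RE against DMSO in WT cells, and from 302 (without WT RE replicate 1) to 2161 (without WT C16 replicate 2) for C16 against RE. They ran from 1084 (without AE9a DMSO replicate 2) to 6394 (without WT C16 replicate 2) for the C16 response, and from 2351 (without AE9a DMSO replicate 1) to 3852 for RE in AE9a cells.

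Signs turned for changes that were small or uncalled. Mxi1 in RE against DMSO in AE9a cells was 0.01 in a fit of all 18 libraries. Without the libraries numbered 2, Mxd4 was 0.04 for C16 against DMSO in WT cells, Mxi1 -0.12 for RE against DMSO in WT cells, Mlx 0.19 and Pvt1 -0.01 for AE9a against WT cells, and Myc 0.05, Mxd1 0.35, Mxi1 0.12 and Mlx 0.02 for the difference in the RE response. For AE9a against WT cells Mnt and Mlx were 0.01 and 0.01 with RLE scaling, 0.01 and 0.01 with no filter, and 0.01 and 0.02 with DESeq2.

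On leaving out 1 library, values that turned sign ran as follows. In AE9a cells they were -1.37 to 0.32 for Mycl under C16, -0.07 to 0.02 for Mxi1 and -0.16 to 0.02 for Pvt1 under RE, and -0.20 to 0.16 for Mycn in C16 against RE. In WT cells under C16 they were -0.17 to 0.16 for Mxd4, -0.10 to 0.26 for Mlx and -0.02 to 0.39 for Pvt1. In WT cells under RE they were -0.64 to 0.26 for Mycn, -0.03 to 0.61 for Mxd3, -0.19 to 0.02 for Mxd4, -0.59 to 0.81 for Mxi1, -0.04 to 0.02 for Mnt, -0.28 to 0.17 for Mlx and -0.41 to 0.03 for Pvt1. In C16 against RE in WT cells they were -0.09 to 0.23 for Mxd4 and -0.07 to 0.34 for Mlx. For AE9a against WT cells they were -0.19 to 0.67 for Mycl, -0.16 to 0.52 for Mxi1, -0.07 to 0.01 for Mnt, -0.14 to 0.19 for Mlx and -0.01 to 0.38 for Pvt1. For the C16 response they were -0.30 to 1.44 for Mycl and -0.19 to 0.65 for Mxi1. For the RE response they were -0.11 to 0.11 for Myc, -0.87 to 0.03 for Mycn, -0.27 to 0.37 for Mxd1, -0.81 to 0.59 for Mxi1, -0.22 to 0.23 for Mlx and -0.09 to 0.35 for Pvt1. At 0 to 27 fragments per library, depth limits what can be said of Mycl.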
